A study of Brassica rapa with 23 samples.

Results

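The response of Chinese cabbage leaves to 30 min of flg22 was read from 8 of the 23 RNA-Seq libraries of the study, 3 from leaf discs treated with 100 nM flg22 and 5 from discs left in water for the same 30 min. All discs came from wild-type Norang, a cultivar of Brassica rapa ssp. pekinensis, cut from the first true leaf of plants grown for 17 days under short days, and the discs of a replicate were pooled before extraction. The flg22 libraries carry the replicate numbers 1, 2 and 3. Water has 1 library of replicate 1 and a pair each for replicates 2 and 3, named here with their title numbers (2-s9 and 2-s13, 3-s17 and 3-s21). The study lists separate water controls for flg22 and for chitin, with the replicate 1 library at 30 min shared by both. In the order of title numbers, water 1, 2-s9 and 3-s17 come directly before the flg22 library of their replicate. Water 2-s13 and 3-s21 come directly before the chitin library of theirs. The labels do not say which of the other water libraries belongs with which treatment, and title order alone is no stated assignment. All 5 therefore served as controls, which would include controls of chitin, and libraries that share a number may share plants.

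Of the 41020 genes in the deposited tables, 23142 had an FPKM (fragments mapped to a gene relative to its length and to the library total) of at least 1 in at least 3 of the 8 libraries and were tested. The remaining 17878 were not tested: 9700 were listed at 0 in all 8 libraries, and 1362 reached an FPKM of 1 in 1 or 2 of them. A gene rose or fell here when its mean log2(FPKM + 1) differed at least 2-fold between flg22 and water, with a Benjamini-Hochberg adjusted p under 0.05 in limma, a linear model fitted to all tested genes. Because an FPKM value depends on all other transcripts of its library, the counts and the fold changes of named genes against water at 30 min are also given after median-ratio scaling, which divides a library by the median ratio of its genes to their geometric mean over the 8 libraries.

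Plants sense microbes at the cell surface with pattern recognition receptors. In Arabidopsis, flg22, a peptide of bacterial flagellin, is bound by the leucine-rich repeat receptor kinase FLS2, which then signals together with the co-receptor BAK1. Calcium influx, a burst of reactive oxygen species and MAP kinase signalling follow within minutes, and large numbers of genes change in expression soon after, a state known as pattern-triggered immunity. The comparison asks which Norang transcripts had already moved at the early time point.

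The main transcripts below can be recognised by the primers that the study designed for quantitative RT-PCR, shown because 3 of these 4 genes carry no name in the sources used here and their identity rests on sequence. All are written 5′ to 3′ in lower case. The first pair belongs to BraNHL10, the early marker, and the others to unnamed genes, of which Bra010367 and Bra031321 rose and Bra020747 fell.
BraNHL10 (Bra017272) forward: ttcaacgccggagagttacg
BraNHL10 (Bra017272) reverse: tccccaagcttaaacctaaccc
Bra010367 forward: atggtaatcgtggcgttgtt
Bra010367 reverse: ccaaacgctgaaaccaaaa
Bra031321 forward: tccccgagctacgtaagaga
Bra031321 reverse: tagctttggtctgcgtgttg
Bra020747 forward: tcaatcccaaaaggttggag
Bra020747 reverse: tccacccccaaagagtaaga

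The libraries rested on 4.57 to 5.53 gigabases of aligned sequence in water (median 4.97) and 4.11 to 5.34 in flg22 (median 4.48), as the ratio of coverage to FPKM shows. Pearson correlations of log2(FPKM + 1) over the tested genes were 0.929 to 0.988 among water libraries, 0.959 to 0.978 among flg22 libraries and 0.748 to 0.843 between the groups. Within water, 2-s13 and 3-s21 stood apart from the other 3. Their 100 most abundant genes held 27.2% and 29.2% of the summed FPKM, against 22.6% to 24.0% in the others. No leaf or contaminant marker is paired with a gene identifier in the sources used here, so the labelled tissue was not checked against markers.

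Treatment with flg22 for 30 min moved a large part of the leaf transcriptome. In the deposited FPKM, 2305 genes rose, which is 9.96% of the tested genes, and 3774 fell, which is 16.3%. After median-ratio scaling 3086 rose (13.3%) and 1512 fell (6.53%). The number that fell thus depended on the scaling, and rises made up 37.9% of the calls in the deposited values and 67.1% after scaling. All 2305 genes that rose also rose after scaling, while 1512 of the 3774 that fell (40.1%) did. In bulk leaf discs, fewer cells of a type and less RNA per cell cannot be told apart.

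Most genes were slightly lower in flg22 in the deposited values. Over the tested genes the log2 fold change had a median of -0.49, and 78.6% of them lay below 0. After scaling the median was -0.026. By adjusted p alone, with no threshold on the fold, 13.1% of the tested genes were higher and 48.8% lower, or 19.8% and 17.4% after scaling. Changes of single genes are therefore best read against these medians. The size factors were 1.18, 1.26, 1.08, 1.26 and 1.02 in the water libraries, in the order 1, 2-s9, 2-s13, 3-s17 and 3-s21 that is kept throughout, and 0.726, 0.803 and 0.854 in flg22 replicates 1, 2 and 3. Every flg22 library therefore had a lower factor than every water library.

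**Figure D1:**
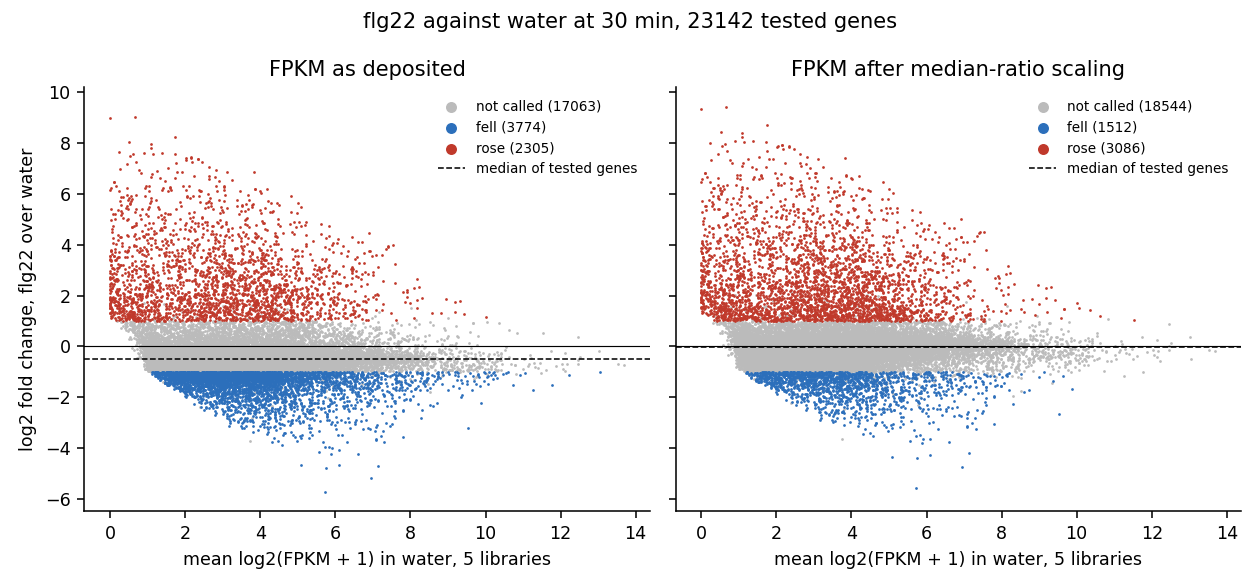
Log2 fold change of flg22 over water at 30 min (y axis) against the mean log2(FPKM + 1) of the 5 water libraries (x axis), 1 point per tested gene, in deposited FPKM (left) and after median-ratio scaling (right). Red points rose and blue points fell, and the dashed line is the median of all tested genes, at -0.49 on the left and -0.026 on the right.

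On the log2(FPKM + 1) scale, rises reached further than falls under either scaling. A fall on this scale cannot exceed the level of the gene in water, while a rise has no such limit. The median tested gene stood at 3.51 in water, so many genes could not fall 16-fold or 64-fold. The counts below therefore do not compare rises and falls on equal terms. At least 4-fold rises were found for 1336 genes and at least 4-fold falls for 577. At 8-fold the counts were 745 and 91, at 16-fold 384 and 10, and at 64-fold 81 and 0. After scaling they were 1741 and 281 at 4-fold, 988 and 39 at 8-fold, 539 and 6 at 16-fold, and 130 and 0 at 64-fold. The median gene that rose had a log2 fold change of 2.25, and the median gene that fell one of -1.34.

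The genes that rose filled a much larger part of the transcript pool with flg22, as measured by TPM, a length-corrected share of all transcripts that sums to the same total in each library. Together the 2305 genes held 5.27%, 4.89%, 3.55%, 6.50% and 3.22% of the summed TPM in the water libraries, and 35.4%, 36.0% and 34.6% in the flg22 libraries. The 3774 genes that fell held 18.2%, 17.7%, 21.5%, 15.4% and 21.1% in water, and 6.88%, 6.72% and 6.88% in flg22. These genes were chosen on the same libraries, so the shares describe the size of the shift and carry no test. The 17063 tested genes that were not called held 74.7% to 77.8% in water and 57.1% to 58.4% in flg22. Their smaller share in flg22 is the same shift seen from the other side, since the shares of a library sum to a fixed total.

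**Figure D2:**
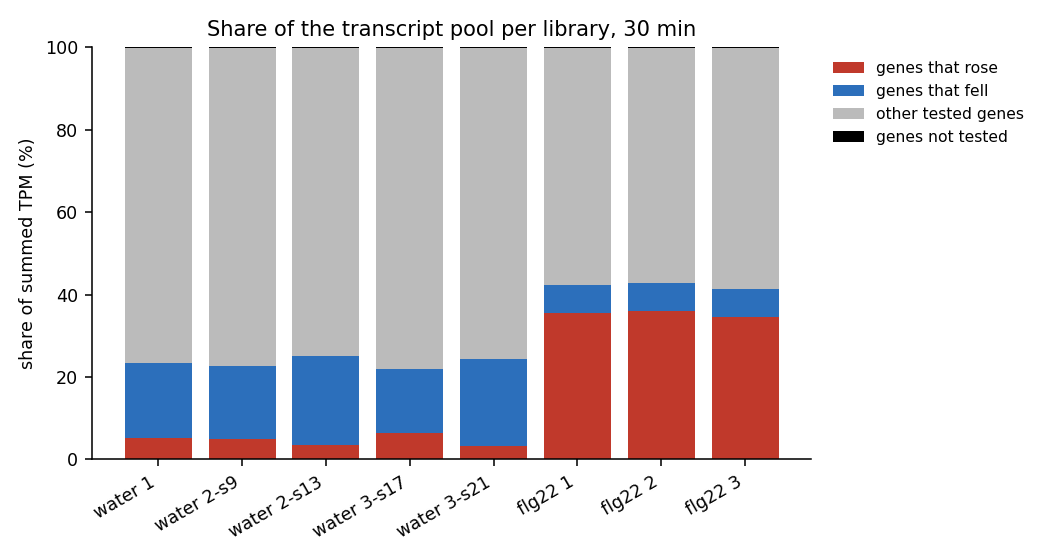
Share of the summed TPM (y axis, in percent) held in each of the 8 libraries (x axis) by genes that rose (red), fell (blue), were tested and not called (grey) or were not tested (black). The red part is 3.22% to 6.50% in water and 34.6% to 36.0% in flg22.

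The most abundant transcripts were exchanged to a large extent. Of the 100 genes with the highest mean FPKM in flg22, 53 were genes that rose, against 1 of the 100 highest in water. Conversely, 23 of the water list had fallen and 3 of the flg22 list had. Of all tested genes, 9.96% rose and 16.3% fell. At 100 FPKM and above in water, 4.79% rose and 20% fell, or 7.82% and 6.81% after scaling. The lists and the calls use the same libraries, so ranking by flg22 favours rises and ranking by water favours falls. The counts are in deposited values and describe the lists. Only 42 genes stood in both lists. The 100 most abundant genes of a library held 21.1 ± 1.32% of the summed FPKM in flg22 (SD, n = 3) and 25.2 ± 2.91% in water (SD, n = 5; exact permutation test, two-sided, p = 0.0357). The median log2(FPKM + 1) of the tested genes was 3.13 ± 0.079 in flg22 (SD, n = 3) and 3.51 ± 0.125 in water (SD, n = 5; exact permutation test, two-sided, p = 0.0357). Genes listed at 0 made up 32.3 ± 0.633% in flg22 and 30.7 ± 0.325% in water (SD, n = 3 and 5; exact permutation test, two-sided, p = 0.0357). This p doubles the smaller tail and is the smallest that 3 against 5 libraries allow by that rule. Adjusted over these 3 tests it stayed 0.0357. None of the 3 differences passed when labels were exchanged only within replicate numbers. There the p counted arrangements with an absolute difference at least as large, without doubling, and 18 arrangements allow no p below 0.0556. The p-values of these tests follow different rules and are not directly comparable. Within replicate numbers the p was 0.0556 for the median level and the share at 0, and 0.167 for the share of the 100 most abundant genes (exact permutation test, two-sided by absolute difference).

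Individual genes separated cleanly between the groups. Of the 2305 genes that rose, 2238 (97.1%) had every flg22 library above every water library, and 1509 (65.5%) still differed at least 2-fold between the lowest flg22 and the highest water library. For the 3774 genes that fell, 3526 (93.4%) had groups that did not overlap, and 981 (26.0%) differed 2-fold between the nearest libraries. Over all tested genes, every flg22 library lay above every water library for 12.5% and below for 44.4%, or 21% and 18.1% after scaling. Those members were called on the same values, so the separation describes them and is no added support.

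BraNHL10 (Bra017272, chromosome A04, 15740520 to 15741203, plus strand, v1.5 build) is the syntenic homolog of Arabidopsis NHL10, a gene widely used as an early marker of pattern recognition. Its FPKM was 13.2, 9.63, 4.17, 14.9 and 3.02 in the water libraries and 961, 1094 and 977 in the flg22 libraries. All 3 flg22 libraries lay far above all 5 water libraries, and the 2 lowest water values came from 2-s13 and 3-s21. The ratio of mean FPKM was 112, and the log2 fold change was 6.86 (SE 0.43, limma adjusted p = 1.46e-06). After scaling it was 7.38.

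The 12 homologs of pattern receptors named in the study did not move as a block. Of the 8 that could be tested, 2 rose at least 2-fold, beside 9.96% of all tested genes, and none fell. By adjusted p alone, 4 were higher and 1 was lower with flg22, beside 13.1% and 48.8% of all tested genes. After scaling 4 rose (beside 13.3%), 6 were higher by adjusted p alone (beside 19.8%) and none was lower. The median log2 fold change over the 8 was 0.60, or 1.09 after scaling, against -0.49 and -0.026 over all tested genes.

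Among the chitin receptors, the LYK5 homolog rose most. LYK5 is a LysM receptor kinase that binds chitin in Arabidopsis, and its homolog Bra021861 (A04, 15018935 to 15023059, minus strand) had an FPKM of 2.17, 2.62, 2.60, 3.80 and 1.56 in water and 48.4, 80.6 and 69.2 in flg22. The groups did not overlap, and the ratio of means was 25.9. Its log2 fold change was 4.24 (SE 0.23, limma adjusted p = 5.73e-07), or 4.72 after scaling.

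CERK1 is the LysM receptor kinase that works with LYK5 in Arabidopsis chitin signalling. Its homolog Bra031293 (A05, 16977701 to 16980704, plus strand) stood at 10.1, 13.2, 8.71, 16.0 and 7.22 FPKM in water and at 48.6, 50.3 and 39.1 in flg22. The lowest flg22 library was above the highest water library. The log2 fold change was 2.00 (SE 0.24, limma adjusted p = 9.62e-05), or 2.52 after scaling.

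LYM2 is a LysM receptor-like protein that binds chitin, and B. rapa has a pair of homologs. The copy in the most fractionated subgenome, Bra009660 (A06, 17045973 to 17047648, minus strand), had 28.0, 28.9, 20.9, 38.3 and 20.4 FPKM in water and 54.2, 53.1 and 50.5 in flg22. It was higher in every flg22 library, just short of 2-fold in the deposited values (log2 fold change 0.96, SE 0.21, limma adjusted p = 0.00336) and beyond it after scaling (1.49). The other copy, Bra002021 (A07, 2492928 to 2494398, minus strand), was lower throughout, with 2.87, 6.01, 4.30, 4.37 and 4.51 FPKM in water and 7.12, 6.11 and 4.59 in flg22. Its groups overlapped, and its log2 fold change was 0.37 (SE 0.21, limma adjusted p = 0.141), or 0.83 after scaling (adjusted p = 0.0152).

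The receptor of flg22 itself was not called against the 5 water libraries. BraFLS2 (Bra017563, A09, 12614687 to 12620601, plus strand) had 8.63, 8.31, 3.51, 5.60 and 2.54 FPKM in water and 3.55, 4.44 and 3.18 in flg22. The water libraries spread more widely than the flg22 libraries, and the groups overlapped. Its log2 fold change was -0.41 (95% interval -1.05 to 0.23, limma adjusted p = 0.283), or 0.036 after scaling. Against water 1, 2-s9 and 3-s17 alone it was lower, with a log2 fold change of -0.84 (limma adjusted p = 0.00885). The other FLS2 homolog, Bra022032, was listed at 0 in all 8 libraries.

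EFR, the receptor for bacterial elongation factor Tu, also has a pair of homologs. BraEFR2 (Bra002305, A10, 10459324 to 10462502, minus strand) was near the detection filter, with 0.93, 1.28, 0.99, 1.27 and 0.83 FPKM in water and 0.93, 1.27 and 1.53 in flg22. Its groups overlapped, with a log2 fold change of 0.12 (SE 0.14, limma adjusted p = 0.472) or 0.42 after scaling (adjusted p = 0.0209). BraEFR1 (Bra006560) was listed at 0 in all 8 libraries.

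LORE is the lectin receptor kinase that Arabidopsis needs to respond to preparations of bacterial lipopolysaccharide. Its homolog Bra031434 (A01, 17330202 to 17333139, minus strand) had 15.7, 15.6, 11.0, 27.1 and 12.4 FPKM in water and 24.4, 27.9 and 34.3 in flg22. Water 3-s17 lay within the flg22 range and the other 4 water libraries below it. The log2 fold change was 0.84 (SE 0.26, limma adjusted p = 0.0198), less than 2-fold, or 1.35 after scaling. The adjusted p rose above 0.05 without flg22 replicate 2 (0.0522) or 3 (0.0733), and against water 1, 2-s9 and 3-s17 (0.0643) or 1, 2-s13 and 3-s17 (0.0788).

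LYM1 and LYM3 are LysM proteins that bind bacterial peptidoglycan in Arabidopsis. The LYM1 homolog Bra016402 (A08, 17512432 to 17514340, minus strand) had 6.80, 8.67, 8.72, 7.00 and 6.93 FPKM in water and 3.16, 5.53 and 4.50 in flg22, without overlap. It was lower by less than 2-fold (log2 fold change -0.69, SE 0.18, limma adjusted p = 0.00828), and after scaling the difference was -0.24 (adjusted p = 0.301). The other LYM1 homolog (Bra017956) and the LYM3 homolog (Bra008320) stayed under the filter, with means of 0.762 and 0.851 FPKM in water and 0.334 and 0.665 in flg22.

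**Figure D3:**
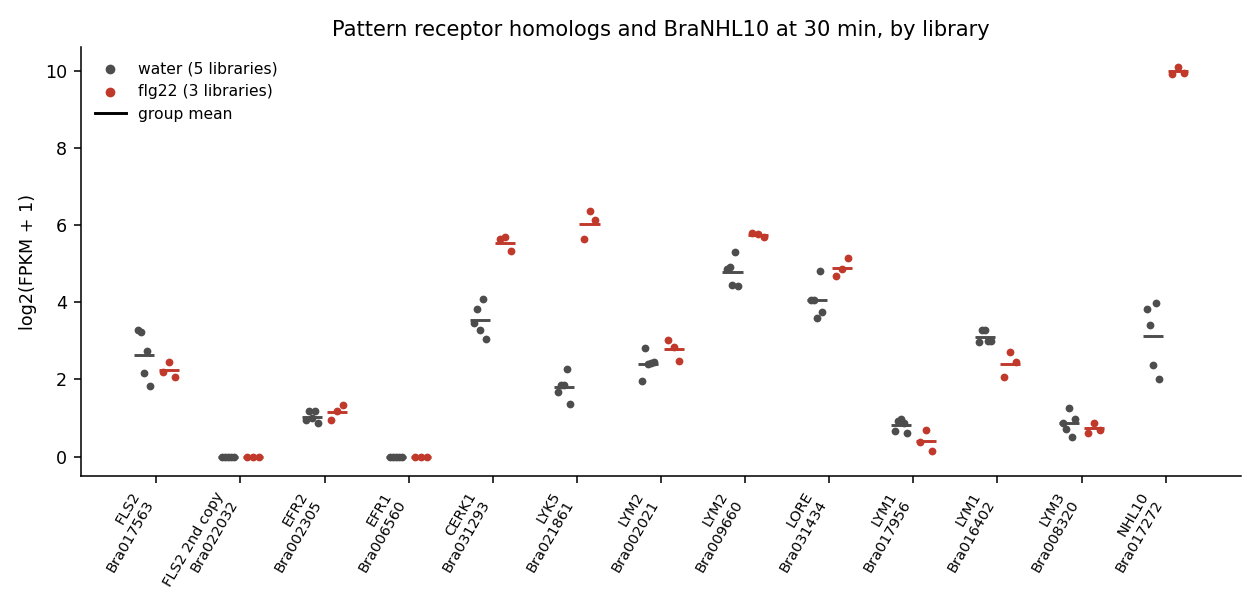
Log2(FPKM + 1) (y axis) of the 12 receptor homologs and BraNHL10 (x axis) in each of the 5 water (grey) and 3 flg22 (red) libraries, with horizontal lines at the group means. The LYK5 and CERK1 homologs and BraNHL10 lie apart in the groups, with log2 fold changes of 4.24, 2.00 and 6.86, while the FLS2 and EFR2 points overlap.

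Glucosinolates are sulfur-containing defence compounds of the Brassicaceae, and the study singled out 3 gene copies of their pathway. It named these copies because it found them differentially expressed only with chitin at the later time. For homologs of other genes of the pathway it reported rapid induction by both flg22 and chitin. Its text gives no identifiers for those homologs, and they were not tested by name here. The 3 copies therefore do not stand for the response of the pathway. One of the 3 fell, beside 16.3% of all tested genes (6.53% after scaling). CYP79B3 converts tryptophan to indole-3-acetaldoxime at the start of the indolic branch, and Bra030246 (A04, 10022729 to 10024935, plus strand) had 16.0, 23.4, 16.7, 25.5 and 25.4 FPKM in water and 3.15, 8.42 and 9.59 in flg22. The groups did not overlap. The log2 fold change was -1.56 (SE 0.31, limma adjusted p = 0.00206), or -1.08 after scaling (adjusted p = 0.0177) and -0.97, short of 2-fold, with scaling and the replicate block.

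APK2 activates sulfate for the sulfation of glucosinolates. Bra017872 (A03, 31218969 to 31220359, minus strand) had 16.7, 17.8, 23.5, 20.8 and 38.1 FPKM in water and 13.3, 12.6 and 15.5 in flg22. Its flg22 libraries were all below its water libraries, by less than 2-fold (log2 fold change -0.66, SE 0.25, limma adjusted p = 0.04), and after scaling the difference was -0.15 (adjusted p = 0.724). This adjusted p did not hold, since it was above 0.05 in 11 of 22 alternatives, among them each fit without a flg22 library, the fit without water 2-s13 (0.0673) and that over all 23 libraries (0.106).

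UGT74B1 adds the glucose of the glucosinolate core. Bra024634 (A09, 25123658 to 25125223, plus strand) had 45.7, 56.8, 55.7, 102 and 61.2 FPKM in water and 27.6, 37.4 and 55.7 in flg22. Water 3-s17 was far above the other libraries, and the groups overlapped. Its log2 fold change was -0.67 (SE 0.28, limma adjusted p = 0.0643), or -0.58 (adjusted p = 0.0343) with the replicate number as a block in the fit, and -0.14 after scaling (adjusted p = 0.721).

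The study followed UGT74B1 and a further pair of genes at the later time, and this pair was not called at 30 min. S-adenosylmethionine synthase 3 (Bra017219, A04, 16058827 to 16059999, minus strand), which makes the methyl donor S-adenosylmethionine, had 20.8, 24.2, 24.7, 77.4 and 39.8 FPKM in water and 23.0, 28.3 and 50.2 in flg22. Its sign was not stable (log2 fold change -0.040, 95% interval -0.86 to 0.78, limma adjusted p = 0.936, and 0.49 after scaling), with water 3-s17 again the highest library. The endochitinase gene Bra000310 (A03, 10496406 to 10497525, minus strand), whose product cleaves chitin, had 35.5, 24.5, 25.3, 23.1 and 17.2 FPKM in water and 32.0, 26.0 and 23.3 in flg22. Its groups overlapped (log2 fold change 0.13, 95% interval -0.30 to 0.56, limma adjusted p = 0.607), and after scaling it was 0.65 (adjusted p = 0.0404).

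A further 4 genes without a name were chosen by the study for quantitative RT-PCR, and the selection was made on these libraries. Bra010367 (A08, 13373824 to 13374042, minus strand), whose primers are printed above, showed the highest log2 fold change of all tested genes. Its FPKM was 1.59, 0.60, 0.03, 0.99 and 0.19 in water and 934, 773 and 767 in flg22. It went from the edge of detection to among the abundant transcripts, with a log2 fold change of 9.02 (SE 0.28, limma adjusted p = 2.42e-08), or 9.44 after scaling.

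Bra031321 (A05, 16724079 to 16725332, minus strand) had 1.17, 0.83, 1.11, 1.15 and 1.00 FPKM in water and 242, 160 and 109 in flg22. The water libraries agreed closely and the flg22 libraries spread over more than 2-fold. Its log2 fold change was 6.31 (SE 0.23, limma adjusted p = 5.19e-08), or 6.75 after scaling.

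Bra020747 (A02, 22780454 to 22783117, plus strand) was close to silent after flg22, with 12.0, 8.66, 7.07, 10.1 and 4.73 FPKM in water and 0.10, 0.19 and 0.27 in flg22. The groups were far apart. On the log2(FPKM + 1) scale, which understates the change of low values, its log2 fold change was -2.95 (SE 0.25, limma adjusted p = 9.69e-06), or -2.71 after scaling. The fourth gene, Bra009738 (A06, 17546779 to 17549963, minus strand), had 9.62, 17.1, 4.13, 5.83 and 1.71 FPKM in water and 2.43, 5.78 and 3.10 in flg22. Its water libraries spanned the whole flg22 range, and it was not called (log2 fold change -0.64, SE 0.53, limma adjusted p = 0.299, and -0.19 after scaling). Against water 1, 2-s9 and 3-s17 alone it fell, with a log2 fold change of -1.26 (limma adjusted p = 0.0213).

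The reference gene of the quantitative RT-PCR, elongation factor 1 alpha (Bra006661, A03, 4509393 to 4510826, minus strand), had 195, 277, 177, 274 and 218 FPKM in water and 115, 194 and 208 in flg22. Only flg22 replicate 1 lay below the water range. Its log2 fold change was -0.43 (95% interval -0.91 to 0.05, limma adjusted p = 0.145), close to the median of all genes, and 0.11 after scaling.

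Outside these lists, the genes at the extremes of the comparison carry identifiers only. The largest log2 rise with groups apart and no library at 0 was that of Bra025707 (A06, 7114604 to 7114861, plus strand), with 2.99, 1.59, 1.98, 5.22 and 1.18 FPKM in water and 1530, 944 and 686 in flg22. Replicate 1 was the highest of the flg22 libraries, as it was for Bra010367, Bra031321 and Bra000884. The log2 fold change was 8.22 (SE 0.36, limma adjusted p = 1.49e-07), or 8.70 after scaling. The largest gain in FPKM was that of Bra000884 (A03, 13716673 to 13717051, plus strand), from 233, 181, 98.1, 467 and 108 FPKM in water to 3663, 2473 and 2685 in flg22 (log2 fold change 3.97, SE 0.46, limma adjusted p = 8.38e-05, and 4.51 after scaling).

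The largest fall under the same conditions was that of Bra024750 (A09, 24299524 to 24301114, minus strand), from 105, 114, 144, 106 and 154 FPKM to 2.83, 1.37 and 3.48. An abundant transcript was thus nearly gone in all 3 flg22 libraries (log2 fold change -5.17, SE 0.23, limma adjusted p = 1.76e-07, and -4.72 after scaling). The largest loss of FPKM was that of Bra040764 on an unplaced scaffold, from 7686, 8963, 8770, 9171 and 7886 to 3728, 3879 and 5048. Its call rested on the scaling and on the threshold, with a log2 fold change of -1.02 (SE 0.26, limma adjusted p = 0.0074), -0.99 with the replicate block and -0.48 after scaling (adjusted p = 0.249). Without a filter on low values its adjusted p was 0.102.

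Genes that rose came from every level of expression in water. Among the 10484 tested genes with a mean of 1 to 10 FPKM in water, 951 (9.07%) rose and 1667 (15.9%) fell. Between 10 and 100 FPKM the counts were 839 (8.08%) and 1790 (17.2%) of 10381, and at 100 FPKM and above 76 (4.79%) and 317 (20%) of 1585. The share that rose was thus smallest among the most abundant genes, and the share that fell was largest there in the deposited values. After scaling, the shares that fell were 6.30%, 7.17% and 6.81% in these classes, with no such order. Of the 692 tested genes with a mean under 1 FPKM in water, 439 rose. A gene of that class with fewer than 3 water libraries at 1 FPKM could pass the filter only with the help of flg22 libraries. The class holds 338 genes under 1 FPKM in all 5 water libraries and at least 1 in all 3 flg22 libraries, which had to differ. In the other direction, 1319 tested genes were under 1 FPKM in all 3 flg22 libraries and passed the filter through water alone. Of these, 501 fell, so the filter favoured those calls as well.

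Some transcripts were seen in 1 group only. Listed at 0 in all 5 water libraries and at 1 FPKM or more in all 3 flg22 libraries were 22 genes, of which 2 exceeded 10 FPKM in every flg22 library. Bra017264 (A04, 15783285 to 15785044) had 493, 501 and 537 FPKM in flg22, and Bra018254 (A05, 6965525 to 6965743) had 72.6, 63.5 and 72.6. In the other direction there were 2 genes, and these 4 genes are named here after their values were seen. Bra001759 (A03, 18297422 to 18298237) had 1.56, 2.62, 1.77, 1.58 and 1.36 FPKM in water, and Bra020421 (A02, 5643066 to 5643512) had 2.77, 2.05, 1.33, 2.07 and 1.48, both with 0 in every flg22 library. No fold is given against a group listed at 0. In 12 further cases a single library was at 0 although its group median was at least 10 FPKM, so a 0 in these tables can be a failed estimate.

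Genes that responded were shorter than the average gene. The span from start to end had a median of 1731 bp over all tested genes, 1474 bp for genes that rose and 1553.5 bp for genes that fell, or 1536.5 and 1368.5 bp after scaling. With the genes divided by span into 4 classes of about equal size, 13.8% rose and 20.1% fell up to 1071 bp, 9.68% and 17.2% up to 1731 bp, 9.08% and 16.1% up to 2719 bp, and 7.31% and 11.9% above that. Both shares declined from each class to the next, and the same held after scaling. Mean levels in water also differed, with medians of 12.1, 11.9, 10.8 and 8.69 FPKM from the shortest to the longest class. The part of level and of counting precision in this order was not tested.

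**Figure D4:**
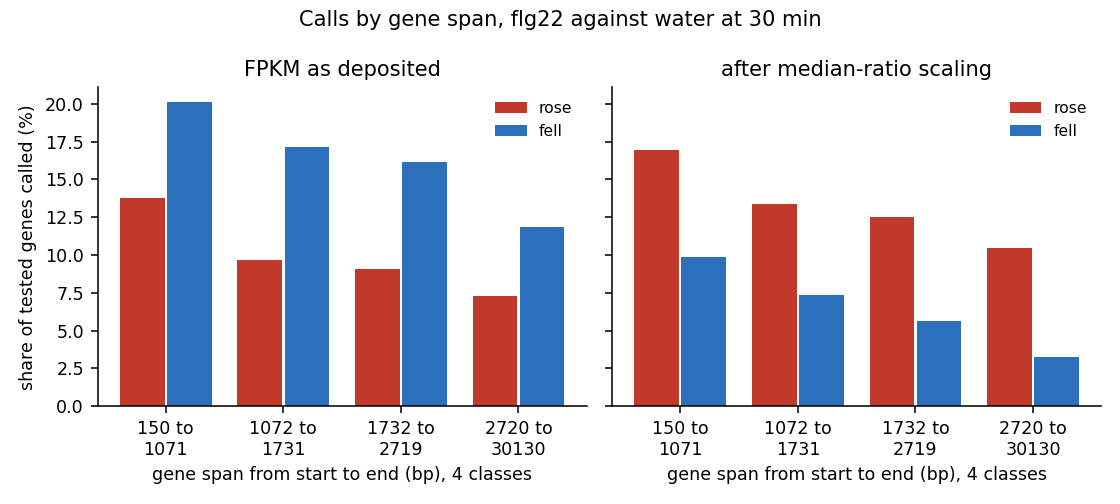
Share of tested genes (y axis, in percent) that rose (red) or fell (blue) in each of 4 classes of gene span (x axis, in bp from start to end), in deposited FPKM (left) and after median-ratio scaling (right). On the left the share that rose declines from 13.8% to 7.31% and the share that fell from 20.1% to 11.9%.

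The responding genes were spread over all 10 chromosomes. Between 8.26% (A05) and 10.9% (A09) of the tested genes of a chromosome rose, and between 15.2% (A03) and 17.8% (A07) fell. At a finer scale they lay near each other. Where a tested gene rose, the next tested gene along the chromosome also rose in 17.0% of cases, against 9.97% over all 22989 neighbouring pairs. For falls the shares were 20.7% and 16.3%. The longest runs of adjacent tested genes that rose had 5 genes. On A07 (21904198 to 21923488) the 5 log2 fold changes were between 3.04 and 4.11, and on A09 (26682862 to 26710961) between 2.74 and 3.58. Neighbours can be near-identical copies that share reads, which was not tested, so these counts are descriptions.

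The same genes were read at 180 min in other libraries, 3 of flg22 and 6 of water. Of the 2305 genes that rose at 30 min, 630 (27.3%) were also at least 2-fold higher than water at 180 min, beside 6.43% of all tested genes, while 65 (2.82%) were lower, beside 9.33%. After scaling, 751 of the 3086 genes that rose (24.3%) were also higher at 180 min, beside 6.27%, and 270 of the 1512 that fell (17.9%) also lower, beside 8.91%. The share still high grew with the size of the early rise. It was 22.0% for early rises of 2-fold to 4-fold, 25.7% for 4-fold to 8-fold, 30.5% for 8-fold to 16-fold and 40.4% above 16-fold. Of the 3774 genes that fell, 739 (19.6%) were lower at 180 min and 65 (1.72%) higher.

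The genes that rose also took less of the transcript pool at the later time. Their share of the summed TPM was 9.12% to 11.2% in the flg22 libraries at 180 min, against 34.6% to 36.0% at 30 min and 3.28% to 6.60% in water at 180 min. For the genes that fell the share was 11.1% to 12.8% with flg22 and 14.3% to 20.2% with water at 180 min. The genes were chosen on the 30 min libraries, which favours a larger shift there than at 180 min. Neither group of libraries at 180 min entered the choice.

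The difference between the responses was tested directly, with flg22 over water at 180 min set against flg22 over water at 30 min in limma over all 23 libraries. Of the genes that rose at 30 min, 1691 (73.4%) had a response at least 2-fold lower at 180 min and 20 one at least 2-fold higher, at an adjusted p under 0.05. Of those that fell, 2038 (54.0%) had a higher response and 34 a lower one. Over all tested genes 17.7% were higher and 9.13% lower, or 7.07% and 14.5% after scaling. By adjusted p alone, with no threshold on the fold, 38.2% were higher and 12.5% lower, or 19.2% and 21.9% after scaling. The 30 min libraries both chose the genes and enter this difference, so the counts lean towards a smaller response at 180 min.

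BraNHL10 was still high at 180 min, at 86.2 ± 7.41 FPKM with flg22 (SD, n = 3) and 7.31 ± 5.63 with water (SD, n = 6). The response at 180 min less that at 30 min was -3.23 on the log2 scale (limma adjusted p = 0.000471). The LYK5 homolog was back in the water range, at 1.92 ± 0.81 with flg22 (SD, n = 3) and 2.31 ± 1.04 with water (SD, n = 6), and its response differed by -4.40 (limma adjusted p = 8.64e-09). For the CERK1 homolog the levels were 23.1 ± 2.49 FPKM with flg22 and 11.8 ± 3.53 with water (SD, n = 3 and 6), and the difference was -1.04 (limma adjusted p = 0.0216).

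Of the unnamed genes, Bra031321 kept 134 ± 31.8 FPKM with flg22 at 180 min (SD, n = 3) against 2.03 ± 1.47 with water (SD, n = 6), with a difference between responses of -0.76 (limma adjusted p = 0.135), or -1.26 after scaling (adjusted p = 0.0247). Bra010367 had dropped to 10.0 ± 5.64 FPKM, with a difference of -6.85 (limma adjusted p = 7.43e-10). Bra020747, close to silent at 30 min, stood at 14.1 ± 2.58 with flg22 and 10.5 ± 2.70 with water at 180 min, with a difference of 3.37 (limma adjusted p = 1.83e-07). Bra009738 was not called at 30 min, but at 180 min it had 2.56 ± 0.493 FPKM with flg22 and 72.3 ± 28.9 with water. Its means at 30 min were 3.77 FPKM with flg22 and 7.68 with water, so it was mainly the water level that changed between the times.

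**Figure D5:**
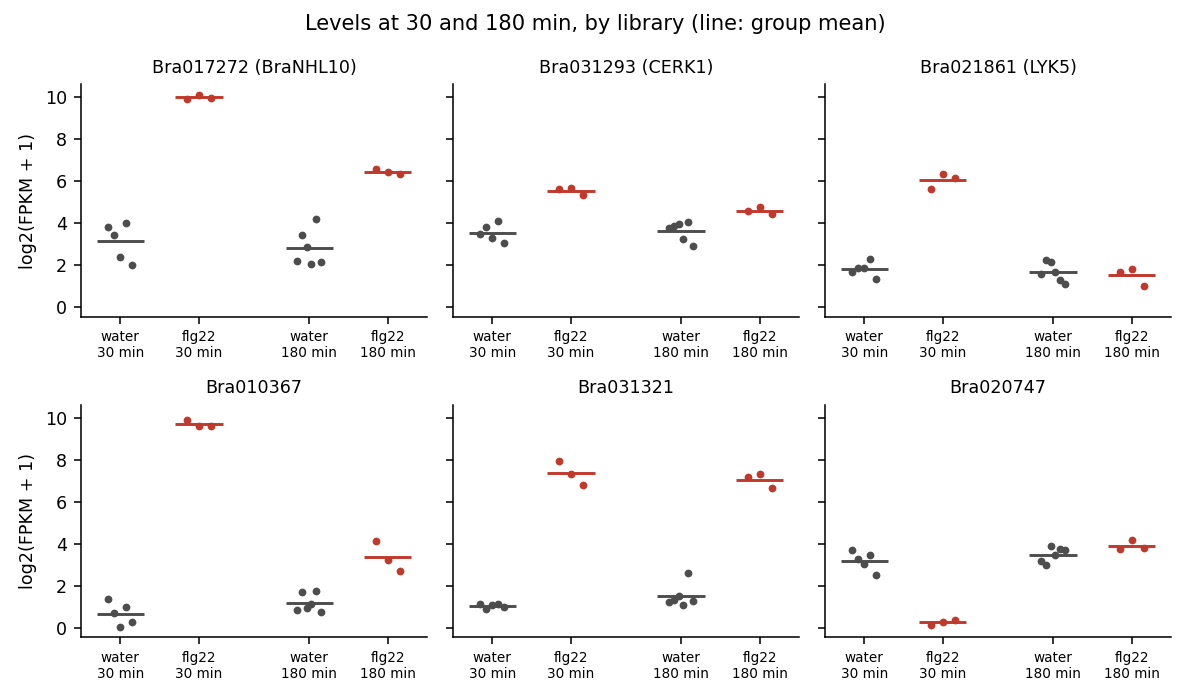
Log2(FPKM + 1) (y axis) of 6 genes in each library of water (grey) and flg22 (red) at 30 and 180 min (x axis), with horizontal lines at the group means. BraNHL10 and Bra031321 remain above water at 180 min, at 86.2 and 134 FPKM, while the LYK5 homolog and Bra020747 lie in or near the water range.

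Chitin, a fungal cell wall polymer, was the other elicitor of the study, and its 3 libraries at 30 min were tested directly against those of flg22. With flg22, 150 genes were at least 2-fold higher than with chitin (0.648% of the tested genes) and 68 were lower (0.294%), at an adjusted p under 0.05 in limma. After scaling the counts were 193 (0.834%) and 66 (0.285%). Of the 150 higher genes, 149 were among those that rose over water. Of the 68 lower genes, 58 were among those that fell. Because the flg22 libraries are shared by both comparisons, these counts are descriptions. The genes that rose over water held 21.9% to 30.7% of the summed TPM with chitin, below the 34.6% to 36.0% with flg22. They were chosen for being high in these flg22 libraries, which favours flg22 here, so the shares do not compare the strength of the responses.

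These counts rested on single libraries. They were 33 and 9 without chitin replicate 3, 275 and 202 without chitin replicate 1, 52 and 15 without flg22 replicate 2, and 95 and 33 without flg22 replicate 3. The lower count was 182 without flg22 replicate 1 and 136 without chitin replicate 2. Among the genes named here, Bra024750 was lower with flg22 than with chitin, at 2.56 ± 1.08 against 8.95 ± 0.674 FPKM (SD, n = 3 each), a log2 difference of -1.53 (limma adjusted p = 0.00604). BraNHL10 had 458 ± 212 FPKM with chitin, and its log2 difference of 1.23 did not pass (limma adjusted p = 0.267). The LYK5 and CERK1 homologs differed by -0.29 (limma adjusted p = 0.622) and 0.17 (adjusted p = 0.779).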

How the data were processed

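Discs were treated with water, flg22 or chitin, RNA was extracted and libraries were made with a stranded mRNA kit. Per the labels, the authors used Trimmomatic 0.36, HISAT2 and StringTie 2.0, with the B. rapa v1.5 build. The deposited FPKM values, the deposited TPM values and the deposited coverage signal are given per gene and library. The authors used DESeq2 for their own comparisons, whose values were not used here. No read counts were used, so depth was taken as coverage over FPKM.

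FPKM of the 8 libraries was joined by gene and tested as log2(FPKM + 1) with limma 3.58.1 (R 4.3.3, mean-variance trend, no covariate). Benjamini-Hochberg adjustment ran over all 23142 tested genes. The comparisons with 180 min and with chitin used 1 model over all 23 libraries and 6 conditions. P-values measure the spread between these samples. Same-numbered flg22 and water samples deviated together (correlations 0.25, 0.45 and 0.34, water pairs averaged), so the numbers pair them by the rule used here, and a fit with the replicate number as a block was run. Taken singly, flg22 replicate 2 correlated at 0.40 with water 2-s9 and 0.071 with 2-s13, and replicate 3 at 0.40 with 3-s17 and -0.14 with 3-s21, so the pairing rests on 1 library of each water pair. The script was tested on simulated data.

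Named genes are those the study names by identifier, and, outside them, the largest log2 and FPKM rise and fall with groups apart and no library at 0. Members and lists were chosen with earlier results of these data known, and part of the gene list was chosen by the study on these libraries. Names are the study's, since the name table used here (RefSeq) matched 1 identifier. A list of further genes by name was therefore not drawn up.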

Additional observations from a re-analysis of the deposited data

Results flagged for a closer look

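One of the 25 genes checked had a water library far from the other 4. For Bra024634 (UGT74B1), water 3-s17 lay above the others by a gap of 0.724 of the group's range, where 0.71 is Dixon's limit for 5 libraries. Chance alone flags about 1 in 20 such groups.

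The response of 13 of the 23 tested named genes differed between 30 and 180 min in limma, at an adjusted p under 0.05, in the test of the difference itself, beside 38.2% of all tested genes with a higher and 12.5% with a lower response at 180 min. Some of these genes were chosen as extremes at 30 min. It was smaller or more negative at 180 min for Bra010367 (-6.85 on the log2 scale), Bra025707 (-5.91), the LYK5 homolog Bra021861 (-4.40), Bra009738 (-3.65), Bra000884 (-3.45), BraNHL10 (Bra017272, -3.23) and the CERK1 homolog Bra031293 (-1.04). It was higher for Bra024750 (4.08), Bra020747 (3.37), UGT74B1 (Bra024634, 1.86), S-adenosylmethionine synthase 3 (Bra017219, 1.43), CYP79B3 (Bra030246, 1.39) and BraEFR2 (Bra002305, 1.11). After scaling, Bra017219 (0.92, adjusted p = 0.209) and Bra030246 (0.94, adjusted p = 0.106) no longer passed in limma. The study reported late changes of UGT74B1 and Bra017219 with chitin only. Against all water libraries at 180 min, flg22 gave log2 fold changes of 1.20 for UGT74B1 (limma adjusted p = 0.00782) and 1.39 for Bra017219 (limma adjusted p = 0.00962). Its other late chitin genes stayed short of 2-fold there, at 0.61 for Bra000310, 0.54 for Bra017872 and -0.17 for Bra030246.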

How the results depend on the processing

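Leaving out each of the 8 libraries gave 2227 to 2427 genes that rose, 3566 to 4159 that fell and a median log2 fold change of -0.52 to -0.43. The fall count was 1512 after scaling and 1492 with scaling and the replicate block, and the median was -0.026 after scaling, -0.024 with scaling and block, and -0.34 without a filter on low values. A log2 threshold of 2 left 1336 and 577. Other settings (pseudocount 0.1, TPM, filters, no trend, unadjusted p, all 23 libraries, other choices of water libraries) stayed within 1.5 times. Against water 1, 2-s9 and 3-s17, which precede the flg22 libraries in title order, 2134 genes rose and 3984 fell. Pseudocount 0.1 gave 2484 genes that rose and 5614 that fell, so the fall count came close to that limit. The replicate block alone gave 2269 and 3717 and, among the named genes, changed the calls given with it in the report. Against chitin, leaving out a library gave 33 to 275 higher and 9 to 202 lower genes. For the response at 180 against 30 min the range was 3508 to 4834 higher and 1968 to 2290 lower, and scaling gave 1637 and 3347. Of 505 values of the 23 named genes under alternatives, 459 kept direction and side of the adjusted p threshold, 20 lost and 11 gained it, and 15 changed sign, all in genes that were not called. Sign changes were those of BraFLS2 (Bra017563, 0.036 scaled), Bra006661 (0.11 scaled, 0.17 with scaling and block), Bra000310 (-0.017 with water libraries 1, 2-s9 and 3-s17, -0.032 with 1, 2-s13 and 3-s17) and Bra017219 (0.49 scaled, 0.061 with the block, 0.58 with both, 0.067 with water averaged, 0.23 with 1, 2-s9 and 3-s21, 0.22 with 1, 2-s13 and 3-s21, and -0.36 to 0.26 on leaving out each library). The cause was not tested. The exchange of labels within replicate numbers was added after seeing the data. FPKM carry no counts, which limits what is known of the precision of low values.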
